A study of Mus musculus with 38 samples.

Results

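The interferon-stimulated genes described here are 41 genes named by symbol, and all 41 were found among the 46078 genes of the deposited count files. They were listed by symbol as known interferon targets, at a time when earlier results of these data were known. The libraries come from intestinal epithelial cells isolated from C57BL/6 mice during colitis evoked by dextran sodium sulfate (DSS) in the drinking water. KO mice carry a floxed Hk2 gene, which encodes the glycolytic enzyme hexokinase 2, and a Cre recombinase driven by the Villin promoter, so that the deletion is directed to epithelium. WT mice are their littermates with the floxed Hk2 alleles and no stated Cre.

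The libraries form 6 groups by genotype and day. Before DSS there were 4 WT and 5 KO libraries, named day 0 below. On day 3 of 1.5% (w/v) DSS there were 7 WT and 8 KO libraries, and on day 7 of the same dose there were 7 WT and 7 KO libraries. Each library carries its own animal number, and male mice of 10 to 12 weeks of both genotypes shared cages during the DSS course. Mice for basal study were 9 to 11 or 86 to 92 weeks old, and which of these ages each day 0 mouse had is not stated. Totals ranged from 10.5 to 60.6 M counts per library. On these unscaled totals, 3 counts, taken as the floor for a count of 0, equalled 0.0495 to 0.286 counts per M (CPM). The CPM given below are scaled between libraries, and on that scale 3 counts can lie outside this range. Intervals and floors of this kind cover counting error only.

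Interferons are cytokines that make cells hostile to viruses and other intracellular microbes. Type I and type III interferons act on promoters through the interferon-stimulated response element (ISRE), while type II interferon, or interferon gamma, acts through the gamma-activated site (GAS). In the gut, the epithelium responds to type III interferon and to interferon gamma, and many of the induced proteins are GTPases, RNA sensors and enzymes that restrict microbes inside the cell.

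Several libraries stood apart and are named by their labels throughout. The library labelled d3_KO_345 had an Hk2 level of 440 CPM, the highest in its group and far above the KO day 3 median of 112 CPM, which goes against its KO label. The library labelled d3_WT_346 had 99.3 CPM, the lowest in its group and below that KO median, which goes against its WT label. Results that rest on either are given with and without it. Hk2 medians were 331 CPM in WT and 74.1 CPM in KO on day 0, 184 and 112 CPM on day 3, and 308 and 128 CPM on day 7. On day 7 the highest KO library, d7_KO_420 (260 CPM), exceeded the lowest WT library (231 CPM). Epithelial markers (9 of 9 detected) summed to group means of 10255 to 14844 CPM. All 4 pan-leukocyte markers were detected in every group as well, at group means of 32.4 to 171.5 CPM. Every day 0 library has another library series prefix in its file name than the libraries of days 3 and 7, so day 0 and that series cannot be told apart. In such bulk samples, fewer cells of a type and less RNA per cell cannot be told apart either.

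The level of the 41 genes spanned a wide range when set per kb of exon. Irf1, a transcription factor that switches on interferon targets, led with a mean of 58.0 CPM per kb over the 38 libraries. Irf7, the factor that amplifies type I interferon production, followed with 31.6 CPM per kb, and Samd9l, a translation-restricting antiviral factor, with 21.5 CPM per kb. At the low end were the inflammasome-linked GTPase Gbp5 at 0.54 CPM per kb, Ifi44 at 0.43 CPM per kb and the GTPase Mx2 at 0.42 CPM per kb.

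**Figure D1:**
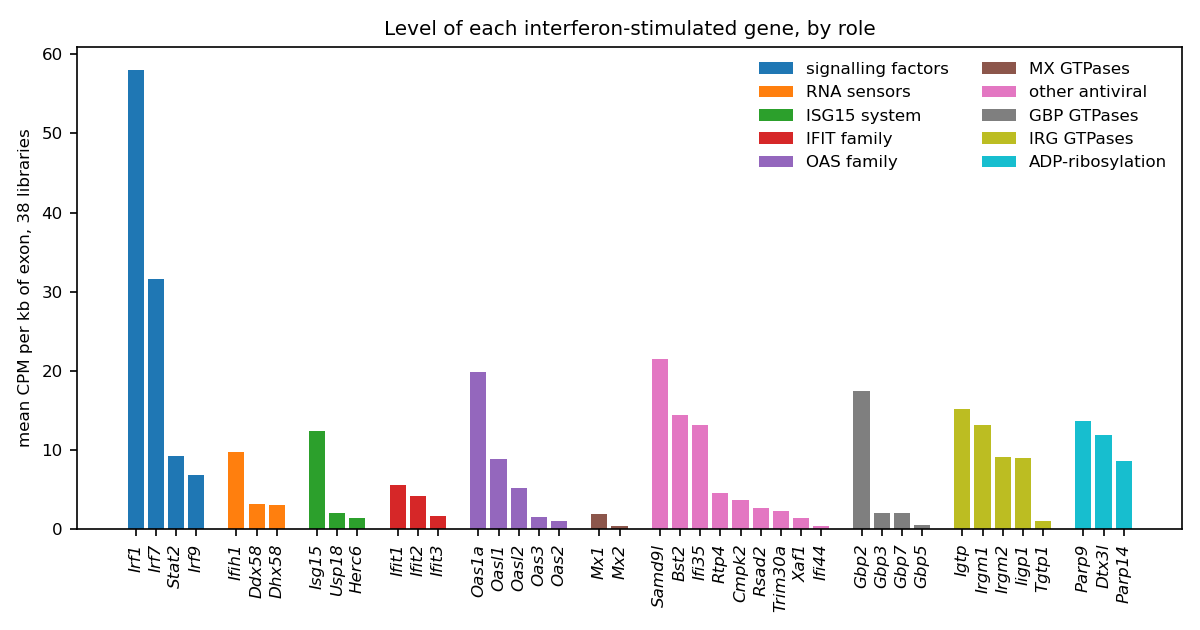
Mean CPM per kb of exon over the 38 libraries for each of the 41 genes, as bars starting at 0 and coloured by role. Irf1 is the highest bar at 58.0 CPM per kb and Mx2 is the lowest at 0.42 CPM per kb.

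Counts of some genes are uncertain because near-identical copies share their sequence. Of the distinct 50-base stretches in GENCODE transcripts, 81.2% of those of Tgtp1 also occur in another gene (chiefly Tgtp2), as do 57.6% of those of Oas1a (Oas1g and Oas1b) and 51.2% of those of Ifit3 (Ifit3b). Dtx3l and Parp9 overlap on opposite strands (8.09% and 7.71% of their stretches), and the counting ignored strand, so reads in the overlap belong to either. The annotated spans of Igtp (chr11:58199556-58207591) and Irgm2 (chr11:58199618-58222779) overlap on the same strand.

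The 4 guanylate-binding protein (GBP) genes lie next to each other on chromosome 3, with Gbp5 at chr3:142493978-142522344, Gbp7 at chr3:142530342-142550149, Gbp3 at chr3:142560026-142573209 and Gbp2 at chr3:142620602-142638008 (GRCm38, all on the plus strand). The promoters below are shown because these genes and the immunity-related GTPase Igtp, with Ifit2, are described by library below, and genes with an ISRE-like match were preferred in choosing them. Each is the sequence (GRCm38.p6) upstream of a RefSeq start of the gene, 5′ to 3′ in the gene's direction, cut where a GENCODE exon begins. For Gbp5 that RefSeq start lies inside the span given above, downstream of the first GENCODE start. Capitals mark matches to an ISRE-like motif (GAAA, any 2 bases, then GAAA, on either strand) or to a GAS-like motif, TTCNNNGAA, and overlapping matches run together.
Gbp5: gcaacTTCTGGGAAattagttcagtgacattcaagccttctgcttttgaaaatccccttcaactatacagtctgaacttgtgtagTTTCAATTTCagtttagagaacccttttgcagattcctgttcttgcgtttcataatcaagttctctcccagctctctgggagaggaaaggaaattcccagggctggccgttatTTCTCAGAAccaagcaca
Gbp3: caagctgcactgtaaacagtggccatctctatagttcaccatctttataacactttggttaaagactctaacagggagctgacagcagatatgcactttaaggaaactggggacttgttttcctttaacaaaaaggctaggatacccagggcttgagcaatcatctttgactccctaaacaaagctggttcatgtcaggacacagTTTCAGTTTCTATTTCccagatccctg
Gbp7: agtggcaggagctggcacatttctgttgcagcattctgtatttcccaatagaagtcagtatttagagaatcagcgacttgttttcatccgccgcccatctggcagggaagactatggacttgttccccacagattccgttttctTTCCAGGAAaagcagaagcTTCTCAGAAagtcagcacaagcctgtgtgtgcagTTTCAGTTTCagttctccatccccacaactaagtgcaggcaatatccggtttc
Igtp: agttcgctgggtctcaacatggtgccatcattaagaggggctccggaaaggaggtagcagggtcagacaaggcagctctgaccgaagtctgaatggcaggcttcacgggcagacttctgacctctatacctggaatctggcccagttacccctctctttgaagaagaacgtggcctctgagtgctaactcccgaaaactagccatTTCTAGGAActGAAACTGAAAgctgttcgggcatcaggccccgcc
Ifit2: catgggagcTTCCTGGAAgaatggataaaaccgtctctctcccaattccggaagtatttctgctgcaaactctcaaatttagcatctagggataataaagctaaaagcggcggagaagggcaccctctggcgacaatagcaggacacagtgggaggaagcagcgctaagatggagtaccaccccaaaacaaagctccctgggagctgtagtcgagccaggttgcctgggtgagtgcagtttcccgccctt

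These stretches lie on the plus strand at chr3:142496684-142496899 (Gbp5), chr3:142559794-142560025 (Gbp3), chr3:142530086-142530335 (Gbp7), chr11:58199306-58199555 (Igtp) and chr19:34550444-34550693 (Ifit2). In Gbp3, 2 ISRE-like matches begin 45 and 39 bases before the start and overlap. Gbp7 has 1 ISRE-like match at 53 bases and GAS-like matches at 106 and 87 bases. In Gbp5 the single ISRE-like match is at 165 bases, and GAS-like matches are at 245 and 52 bases. Ifit2 has no ISRE-like match in this window and 1 GAS-like match at 241 bases, which says only that these letters are absent there.

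RefSeq promoters were matched for 32 of the 41 genes. Not matched were Iigp1, Rtp4, Mx2, Dhx58, Oas2, Usp18, Parp14, Mx1 and Parp9. In the 250 bases before a start, 17 of the 32 genes (53.1%) had an ISRE-like match, against 936 of 27025 genes of the whole promoter table (3.46%). A GAS-like match was present in 9 of the 32 (28.1%), against 8.13% of all genes, and 7 of the 32 had both. The Isg15 promoter held 3 ISRE-like matches, beginning 78, 72 and 66 bases before its start. In 3 immunity-related GTPase genes, Igtp, Irgm2 and Tgtp1, a GAS-like match began exactly 11 bases before an ISRE-like one. Only 5 of the 27025 genes in the table had that spacing, which was looked for after it was seen in these 3. A match is a description of the letters and not a measured binding site.

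Between day 3 and day 7 of DSS, the question was how the interferon-stimulated genes changed as colitis developed in each genotype. In WT, 4 of the 41 genes passed the test and all 4 rose: Gbp5, Parp9, Ifit2 and Usp18 (edgeR's quasi-likelihood test, Benjamini-Hochberg adjusted p under 0.05 over all genes tested). This share is close to the background, since 10.6% of the 15541 genes tested rose in that comparison, while 8.7% fell and 19.3% changed in either direction. In KO, 20 of the 41 rose and none fell, beside 10.5% of 15568 genes that rose, 8.83% that fell and 19.3% that changed. The median log2 fold change of the 41 was 0.21 in WT and 0.68 in KO, beside 0.01 and -0.01 over all genes tested. All 41 fold changes were positive in KO and 31 in WT. The test of whether the day change differed between genotypes called none of the 41 and 0% of 16371 genes, with 2 of the 41 at an unadjusted p under 0.05 (2.69% of all genes), and DESeq2 called none. So the larger count in KO is not shown to be a difference between the genotypes.

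**Figure D2:**
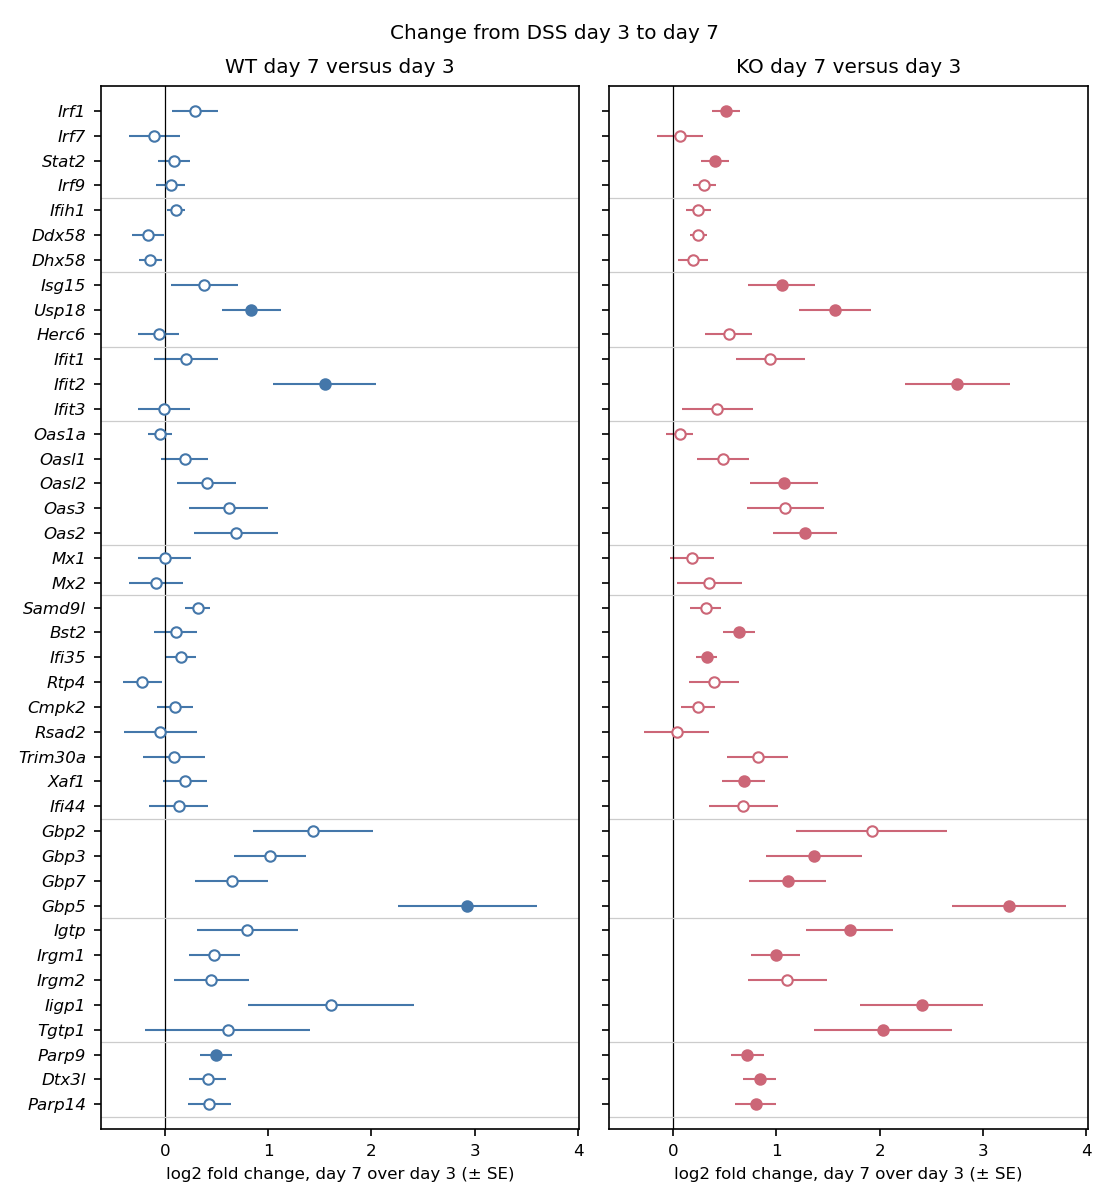
Log2 fold change of day 7 over day 3 with its SE for each gene, WT on the left and KO on the right, with filled points for adjusted p under 0.05 and grey lines between roles. Gbp5 is farthest to the right in both panels (2.93 in WT and 3.25 in KO), and 4 points are filled in WT against 20 in KO.

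Among the GBP GTPases, which attach to membranes of microbe-containing vacuoles, 1 of 4 rose in WT and 3 of 4 in KO, with role medians of 1.23 and 1.64 on the log2 scale. Gbp5 was at 0.587, 1.6, 0.490 and 0.682 CPM in the WT day 0 libraries and at 0.303, 0.111, 0.572, 0.366 and 0.0929 CPM in the KO ones. On day 3 its lowest, median and highest levels were 0.364, 0.518 and 1.46 CPM in WT and 0.456, 0.816 and 2.9 CPM in KO. Day 7 brought 0.805, 1.30 and 12.8 CPM in WT and 2.07, 10.4 and 25.6 CPM in KO. The days overlapped in both genotypes, although only the upper KO day 3 libraries reached the KO day 7 range. Gbp5 rose by 2.93 ± 0.67 (SE) in WT (edgeR adjusted p = 0.00683) and by 3.25 ± 0.55 in KO (edgeR adjusted p = 0.000575). With markers of pan-leukocyte or of monocyte and macrophage identity as a covariate, neither call held, and the estimates were 0.32 and -1.54 in WT and 0.90 and 2.61 in KO.

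Gbp3 was at 2.11, 11.4, 1.61 and 2.73 CPM in WT and 2.12, 1.22, 1.37, 2.01 and 2.97 CPM in KO on day 0. On day 3 the lowest, median and highest levels were 1.82, 3.44 and 6.6 CPM in WT and 1.47, 5.11 and 12.9 CPM in KO. They were 3.92, 7.36 and 11 CPM in WT day 7 and 6.43, 15.2 and 32.7 CPM in KO day 7, so that the highest day 3 libraries lay inside the day 7 range. The change was 1.37 ± 0.46 in KO (edgeR adjusted p = 0.0488) and lay just outside the threshold in WT at 1.02 ± 0.35 (edgeR adjusted p = 0.05001). Gbp7 rose in KO by 1.11 on the log2 scale.

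Gbp2, the most abundant GBP gene here at 17.5 CPM per kb, did not pass in either genotype. On day 3 it had lowest, median and highest levels of 3.46, 7.15 and 36 CPM in WT and 3.64, 25.3 and 82.1 CPM in KO. On day 7 they were 12, 35.9 and 85.5 CPM in WT and 32.6, 91.3 and 429 CPM in KO, the top value being d7_KO_421. KO day 3 libraries alone spread over more than the whole shift between the medians, and the change was 1.92 ± 0.73 in KO (edgeR adjusted p = 0.0781) and 1.43 ± 0.58 in WT (edgeR adjusted p = 0.0976). Gbp2 had the widest spread of the 41 genes in KO day 3, with an SD of 1.91 on the log2 CPM scale beside a median SD of 0.47 over the 41.

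The immunity-related GTPases (IRG), which control vacuoles that hold intracellular pathogens, had 0 of 5 called in WT and 4 of 5 in KO, all higher, with role medians of 0.61 and 1.71. Iigp1, on chromosome 18, had lowest, median and highest levels of 0.518, 4.22 and 38.2 CPM in WT day 3 and 2.66, 10.9 and 39.7 CPM in KO day 3. On day 7 these were 4.78, 35.1 and 60.5 CPM in WT and 24.2, 97.5 and 149 CPM in KO. Only the upper KO day 3 libraries overlapped KO day 7, whereas the WT days overlapped over most of their range. Iigp1 rose by 2.41 ± 0.60 in KO (edgeR adjusted p = 0.00873), and the WT value was 1.61 ± 0.80 (edgeR adjusted p = 0.179).

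Igtp was at 6.17, 30.3, 6.09 and 8.87 CPM in WT day 0 and at 7.77, 7.97, 5.95, 4.75 and 9.48 CPM in KO day 0. Its lowest, median and highest levels moved from 8.45, 22.6 and 42.5 CPM on day 3 to 26.4, 77.5 and 158 CPM on day 7 in KO, and from 6.11, 11.8 and 52.4 CPM to 9.38, 36.5 and 46.9 CPM in WT. The WT ranges are nested, with d3_WT_381 above every WT day 7 library. Igtp rose by 1.71 ± 0.42 in KO (edgeR adjusted p = 0.00845) and had 0.80 ± 0.49 in WT (edgeR adjusted p = 0.28).

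Irgm1, which regulates the other GTPases of the family, was at 40.1, 71.9, 32.6 and 34.4 CPM in WT day 0 and at 36.7, 45.3, 24.5, 27 and 27.3 CPM in KO day 0. KO medians were 75.1 CPM on day 3 (46.9 to 103) and 133 CPM on day 7 (76.5 to 231), with overlap between 76.5 and 103 CPM. WT medians were 51.3 CPM (40.4 to 99.6) and 87.2 CPM (46.4 to 119). It rose by 0.99 ± 0.24 in KO (edgeR adjusted p = 0.00699), and its WT value was 0.48 ± 0.24. Tgtp1 rose by 2.03 in KO (edgeR adjusted p = 0.0413), within the limit its shared sequence sets, and Irgm2 had 1.11 (edgeR adjusted p = 0.0522).

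Ifit2, whose product binds viral RNA and blocks its translation, had day 0 levels of 3.17, 11.8, 2.17 and 4.21 CPM in WT and of 4.61, 6.53, 3.66, 2.65 and 5.85 CPM in KO. In KO its lowest, median and highest levels were 1.15, 9.36 and 14.7 CPM on day 3 and 18.1, 37.3 and 125 CPM on day 7. It was the single gene of the 41 in which no KO day 3 library reached the lowest KO day 7 library. How many of all genes separated in this way was not counted. In WT the corresponding levels were 2.57, 3.99 and 15.4 CPM and 4.62, 13 and 36.8 CPM, and these overlapped. Ifit2 rose by 2.75 ± 0.51 in KO (edgeR adjusted p = 0.00112) and by 1.55 ± 0.50 in WT (edgeR adjusted p = 0.0403). With the monocyte and macrophage covariate the WT estimate was -0.14 and that of KO 2.45, both outside the threshold.

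The other members of that family did not pass. Ifit1, which recognises RNA caps that lack methylation, was at 7.81, 28.1, 6.79 and 17 CPM in WT day 0 and at 16.1, 24.5, 16.8, 16.5 and 22.5 CPM in KO day 0. Its day 7 medians were 9.99 CPM in WT (7.7 to 20.9) and 21.7 CPM in KO (11.4 to 37.5), after 8.66 CPM (6.63 to 23.5) and 12.7 CPM (4.23 to 20.4) on day 3. Its KO value was 0.94 ± 0.33 (edgeR adjusted p = 0.0592). Ifit3 had 0.43 in KO.

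Parp9 and Dtx3l encode partner proteins of ADP-ribosylation and ubiquitin transfer that enhance interferon signalling, and with Parp14 all 3 genes of this role rose in KO. Parp9 was at 55.9, 95.9, 44.7 and 55.3 CPM in WT day 0 and at 50.7, 51.1, 41, 46.6 and 43.2 CPM in KO day 0. Its lowest, median and highest levels were 43.8, 51.7 and 79.3 CPM in WT day 3 and 53.1, 73.4 and 100 CPM in WT day 7. In KO they were 41.1, 62.3 and 73 CPM and 69.3, 88.4 and 129 CPM, and the KO days met only between 69.3 and 73 CPM. Parp9 rose by 0.50 ± 0.15 in WT (edgeR adjusted p = 0.0315) and by 0.72 ± 0.16 in KO (edgeR adjusted p = 0.00432).

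Dtx3l levels were 62.4, 115, 51.1 and 63.9 CPM in WT day 0 and 62.4, 55.3, 47.5, 53.1 and 53.7 CPM in KO day 0. The KO median moved from 63.6 CPM (43 to 68.9) to 101 CPM (66.9 to 137), while that of WT was 54.3 CPM (37.5 to 60.5) and 67.4 CPM (44.5 to 92.8). It rose by 0.84 ± 0.16 in KO (edgeR adjusted p = 0.00167), with 0.42 ± 0.18 in WT (edgeR adjusted p = 0.118). Parp14, a STAT6 cofactor, rose by 0.80 in KO.

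In the ISG15 system, Isg15 is a ubiquitin-like modifier, Herc6 attaches it to proteins in the mouse, and Usp18 removes it and also blocks the type I interferon receptor. Usp18 was at 2.29, 4.01, 1.68 and 1.79 CPM in WT day 0 and at 3.03, 4.65, 1.66, 2.1 and 2.42 CPM in KO day 0. Its lowest, median and highest levels went from 1.48, 2.09 and 2.73 CPM to 1.58, 3.28 and 5.81 CPM in WT and from 1.24, 2.70 and 4.09 CPM to 3.97, 7.52 and 17.3 CPM in KO. The KO days overlapped only at 3.97 to 4.09 CPM. Usp18 rose by 0.84 ± 0.28 in WT (edgeR adjusted p = 0.0494) and by 1.57 ± 0.34 in KO (edgeR adjusted p = 0.00397). Under the same covariate the estimates were -0.57 in WT and 1.59 in KO, neither of them called.

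Isg15 itself was at 4.41, 8.52, 2.94 and 5.02 CPM in WT day 0 and at 5.04, 11.5, 2.23, 3.56 and 5.48 CPM in KO day 0. From day 3 to day 7 its median went from 10.1 CPM (3.92 to 12.8) to 15.7 CPM (8.71 to 36.1) in KO and from 5.58 CPM (4.54 to 15.4) to 8.19 CPM (4.29 to 14.3) in WT. It rose by 1.05 ± 0.32 in KO (edgeR adjusted p = 0.0304) and had 0.38 ± 0.32 in WT. Herc6 passed in neither genotype, with 0.54 in KO.

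Of the 4 signalling factors, Irf1 and Stat2 rose in KO and none passed in WT. Irf1 was at 158, 257, 158 and 176 CPM in WT day 0 and at 179, 123, 141, 141 and 199.6 CPM in KO day 0. Its lowest, median and highest levels were 96.1, 208 and 297 CPM in WT day 3, 175, 263 and 328 CPM in WT day 7, 194, 216 and 283 CPM in KO day 3 and 218, 296 and 453 CPM in KO day 7. All 4 ranges overlapped, and the KO change was 0.51 ± 0.14 (edgeR adjusted p = 0.0152). Stat2, a transcription factor of type I and type III interferon signalling, was at 29.1, 51.5, 33.9 and 38.8 CPM in WT day 0 and at 28.7, 29.1, 26.2, 34 and 36.8 CPM in KO day 0. In KO it went from 41.7 CPM (34.8 to 49.9) to 58.2 CPM (35.6 to 72.7), a change of 0.41 ± 0.13 (edgeR adjusted p = 0.0405), while WT medians were 35.6 CPM (27.7 to 43.8) and 35.1 CPM (26.3 to 49.4). Irf9, another transcription factor of interferon signalling, had 0.30 in KO (edgeR adjusted p = 0.0754), and Irf7 had 0.07.

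The 3 cytosolic RNA sensors did not pass in either genotype. Ifih1, which encodes the long-RNA sensor MDA5, was at 97.5, 119, 77.5 and 104 CPM in WT day 0 and at 90, 79.5, 78.3, 83.8 and 94.6 CPM in KO day 0. Its later medians were 68.9 CPM in WT day 3 (54.6 to 75.5), 80.5 CPM in KO day 3 (57.3 to 92.9), 69 CPM in WT day 7 (64.5 to 87.5) and 85.8 CPM in KO day 7 (70.9 to 109.6). Ddx58, encoding the RNA-end sensor RIG-I, was at 23.4, 28.5, 18.9 and 22.9 CPM in WT day 0 and at 23, 29.5, 19.8, 20.5 and 22.6 CPM in KO day 0. Its lowest, median and highest levels in KO were 21, 22.7 and 24.1 CPM on day 3 and 21.8, 29.1 and 31.5 CPM on day 7. The KO day 3 libraries lay closer together for Ddx58 than for any other of the 41 genes (SD 0.08 on the log2 CPM scale), and its change of 0.25 ± 0.08 lay just outside the threshold (edgeR adjusted p = 0.0507).

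In the oligoadenylate synthetase (OAS) family, whose enzymes activate RNase L, Oas2 and Oasl2 rose in KO by 1.28 and 1.07, and Oas3 had 1.09 (edgeR adjusted p = 0.052). Oas1a, the most abundant at 19.9 CPM per kb, stayed within a narrow band. It was at 34.5, 37.2, 26.3 and 32.9 CPM in WT day 0 and at 33.2, 45.5, 23.1, 31.9 and 29.2 CPM in KO day 0. Later medians were 36.8 CPM in WT day 3 (31.2 to 52.8) and WT day 7 (32.2 to 41.8), 41.3 CPM in KO day 3 (29.1 to 50.5) and 40.5 CPM in KO day 7 (31.9 to 55.2). Its change was 0.06 ± 0.13 in KO and -0.04 ± 0.12 in WT (SE).

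Neither MX GTPase gene passed. Mx1 was at 7.4, 11.7, 7.63 and 9.09 CPM in WT day 0 and at 7.4, 6.2, 6.41, 16.2 and 12.1 CPM in KO day 0. Its medians were 4.94 CPM in WT day 3 (3.3 to 5.64), 7.89 CPM in KO day 3 (4.04 to 9.97), 4.01 CPM in WT day 7 (2.46 to 8.43) and 8.23 CPM in KO day 7 (5.01 to 11.5). Between day 3 and day 7 the change was 0.18 ± 0.22 in KO and -0.00 ± 0.26 in WT.

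Of the 9 other antiviral genes, 3 rose in KO and none passed in WT. Bst2, which tethers budding virus to the cell surface, rose by 0.64, Xaf1, a pro-apoptotic factor, by 0.68, and Ifi35 by 0.33. Samd9l had the same estimate of 0.32 in both genotypes (edgeR adjusted p = 0.0732 in WT and 0.154 in KO). It was at 163, 181, 121 and 143 CPM in WT day 0 and at 147, 136, 118, 113 and 126 CPM in KO day 0, and its medians on days 3 and 7 were 90.6 CPM (77.3 to 102) and 116 CPM (79.8 to 147) in WT and 108 CPM (76.5 to 134) and 133 CPM (82.7 to 168) in KO. Rsad2, encoding the antiviral enzyme viperin, had 0.04 in KO and -0.04 in WT, and its neighbour Cmpk2 had 0.24 and 0.10.

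**Figure D3:**
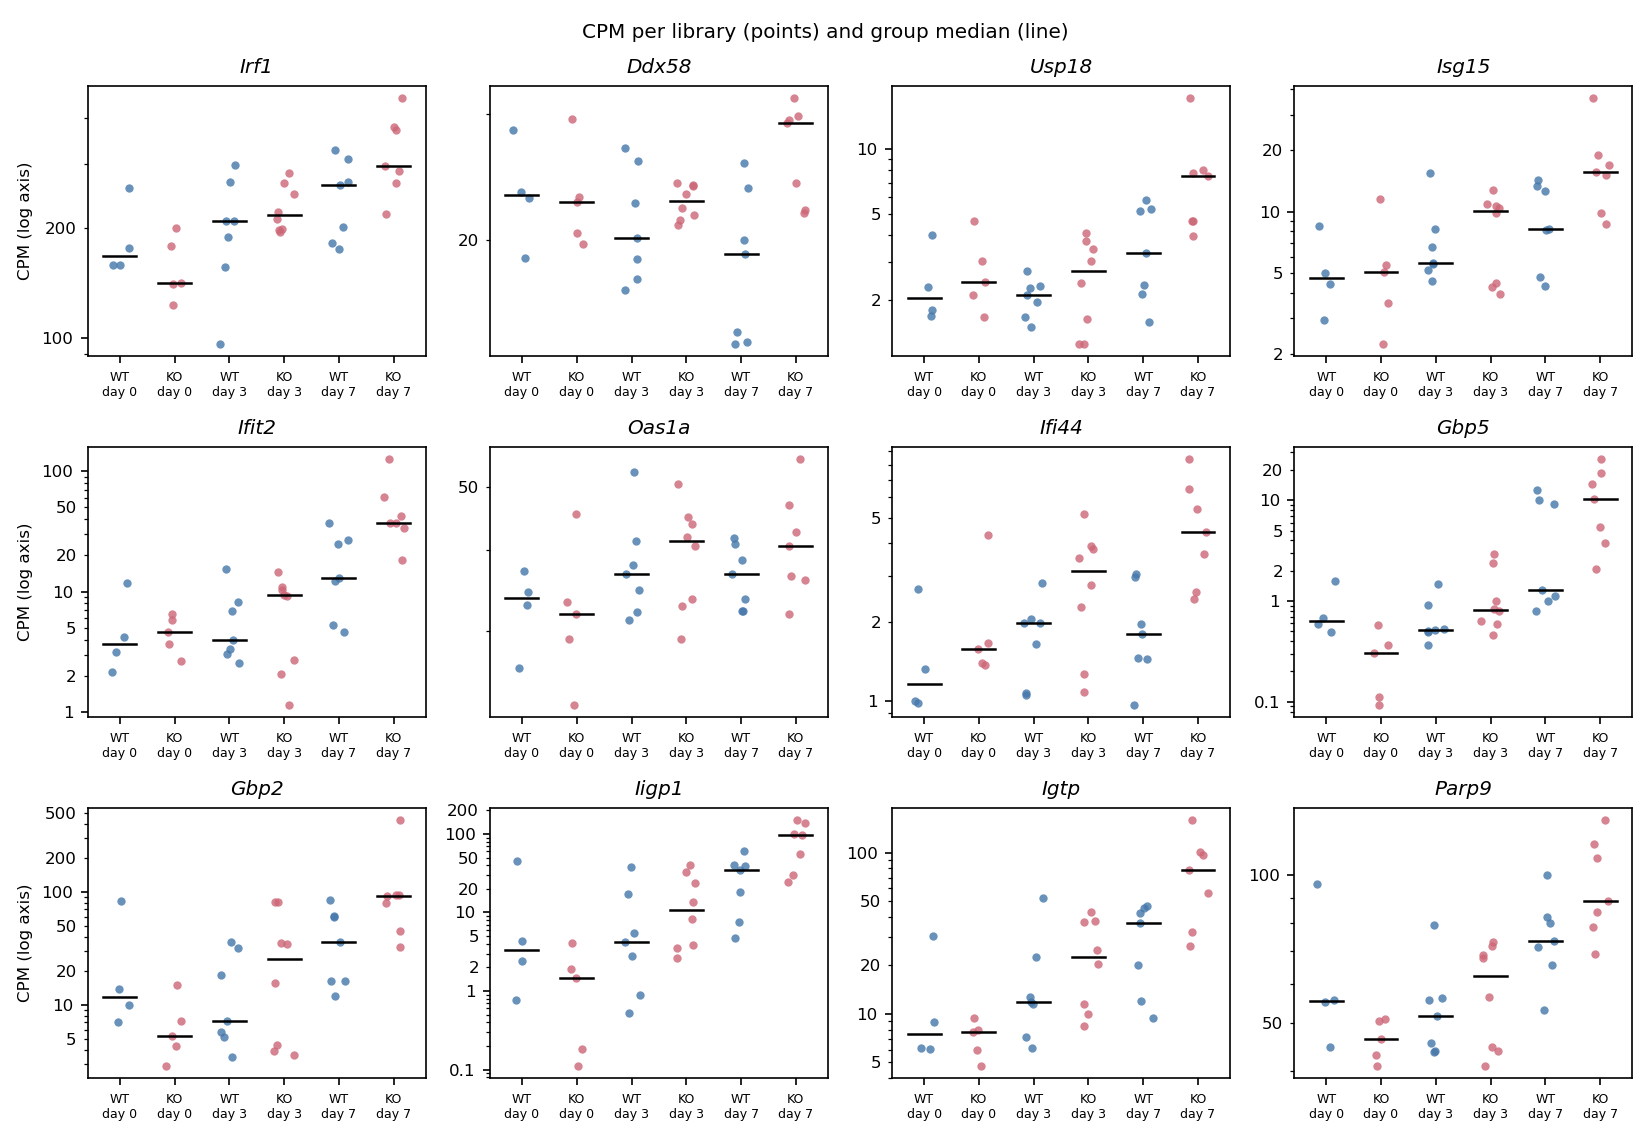
CPM per library (points, log axis) with group medians (lines) for 12 of the genes described with values, by genotype and day. In Ifit2 no KO day 3 point reaches the lowest KO day 7 point of 18.1 CPM, whereas in Oas1a the medians of all 6 groups lie close together.

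The day 7 counts depended on single libraries. Except where given, the share of all genes called in the same fit is not set beside the counts below. They therefore do not show whether the 41 genes moved more than genes at large. The library d3_WT_381 was the highest of WT day 3 in 30 of the 41 genes by scaled CPM, and its rank on unscaled counts was not examined. It had the lowest total of its group (26.7 M counts) and the fewest detected genes of the 38 libraries (19084). Without it, 10 genes rose in WT, 3 of them among the 4. The count was 1, with a median of 0.16, without the library labelled d3_WT_346, and also 1 without any of d3_WT_348, d3_WT_353, d3_WT_486, d3_WT_487 or d7_WT_356, and 2 without any of d3_WT_352, d7_WT_370, d7_WT_386 or d7_WT_419. Gbp5 was called in all 14 of these fits, Parp9 in 6, Ifit2 in 5 and Usp18 in 3. In KO the count was 12 without any of d3_KO_349, d3_KO_350, d3_KO_351 or d7_KO_421. It was 26 without d7_KO_420, the KO day 7 library with the highest Hk2 level, and these include the 20. Without the library labelled d3_KO_345 it was 22, which include the 20, with a median of 0.77 and 22.2% of all genes called in either direction. Called in all 15 KO fits were Gbp5, Ifit2, Dtx3l, Usp18, Parp9, Irgm1, Bst2, Oas2, Igtp, Iigp1, Parp14 and Irf1.

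Markers of leukocytes rose over the same days. All 4 pan-leukocyte markers rose in both genotypes, as did 9 of 9 tested monocyte and macrophage markers in WT and 10 of 10 in KO, and 6 of 6 neutrophil markers in both. Of 10 tested T and NK cell markers, 4 rose in WT and 10 in KO, although their median log2 fold change was larger in WT than in KO. Of 5 tested B and plasma cell markers, 5 rose in WT and 3 in KO. The test of whether the day change differed between genotypes called no marker of either list. The counts therefore do not show a larger rise in either genotype. Summed pan-leukocyte CPM were 20.5 to 59.0 in WT day 3, 39.6 to 76.2 in KO day 3, 53.3 to 303.5 in WT day 7 and 96.0 to 237 in KO day 7, so that the KO days did not overlap. Summed monocyte and macrophage markers were 14.6 to 23.2 CPM in WT day 3, 15.3 to 108 CPM in KO day 3, 46.6 to 246 CPM in WT day 7 and 58.4 to 500.3 CPM in KO day 7. No marker of these lists was at 0 throughout a group. With the mean log2 CPM of the pan-leukocyte markers as a covariate, edgeR called 0 of the 41 genes in WT and 0 in KO, and 460 genes of the whole table in WT and 0 in KO. The median over the 41 became -0.14 in WT and 0.57 in KO. All 4 WT genes had smaller estimates under it (0.07 to 0.61), while of the 20 KO genes 10 had larger and 10 smaller ones (0.33 to 2.30), all positive, with edgeR adjusted p of 0.732 or more. These markers follow the day, most closely in KO, so their part in the changes cannot be told apart from the day.

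**Figure D4:**
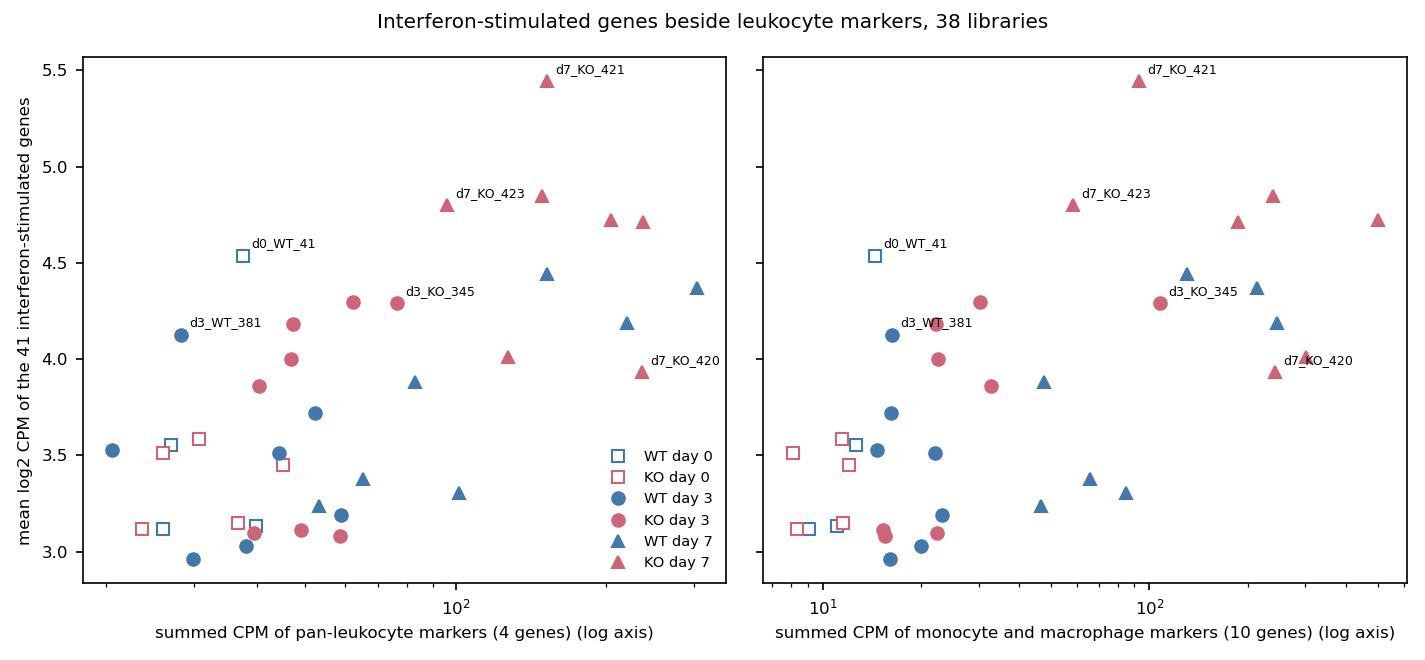
Mean log2 CPM of the 41 genes (vertical axis) against the summed CPM of 4 pan-leukocyte markers (left) and 10 monocyte and macrophage markers (right, both log axes), 1 symbol per library by genotype and day. The library d7_KO_423 is at 4.80 with the lowest leukocyte sum of its group (96.0 CPM), and d7_KO_420 is at 3.93, the lowest of its group, with 235 CPM.

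In WT day 7 the libraries with more leukocyte RNA mostly had higher interferon-stimulated genes. Those with the highest pan-leukocyte sums, d7_WT_419 (303 CPM), d7_WT_356 (220 CPM) and d7_WT_370 (152 CPM), had the highest means over the 41 genes, at 4.37, 4.18 and 4.44 log2 CPM, and those with the lowest, d7_WT_393 (53.3 CPM) and d7_WT_361 (65.3 CPM), had 3.24 and 3.38. Within KO day 7 the orders differed. The library d7_KO_423 had the lowest sums of its group for pan-leukocyte (96.0 CPM), monocyte and macrophage (58.4 CPM) and neutrophil (31.9 CPM) markers. Its T and NK cell sum was not low, at 88.2 CPM in a group range of 45.2 CPM (d7_KO_366) to 127 CPM (d7_KO_422). The mean of d7_KO_423 over the 41 genes was 4.80 log2 CPM, above the group mean of 4.64 ± 0.52 (SD, n = 7). By contrast, d7_KO_420 had the highest neutrophil sum (1353 CPM) and was the lowest of its group in 26 of the 41 genes. It also had the highest Hk2 level of its group. The highest of the group in 33 of the 41 genes was d7_KO_421, with 152 CPM of pan-leukocyte markers. KO day 3 also fell apart, with d3_KO_349, d3_KO_350 and d3_KO_351 at means of 3.08 to 3.11 log2 CPM and the remaining 5 libraries at 3.86 to 4.30. The animal numbers of the low libraries are consecutive, and of the remaining 5 (d3_KO_345, d3_KO_385, d3_KO_387, d3_KO_388 and d3_KO_392) only that of the library with the doubted label is near them, and what the numbers stand for is not stated.

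KO was then compared with WT on each day, which asks whether loss of epithelial Hk2 changed these genes. On day 7 all 41 genes had a positive log2 fold change, from 0.16 (Ifi35) to 2.04 (Tgtp1), with a median of 0.73 beside -0.00 over all 15584 genes tested, of which 49.1% were positive. None of the 41 passed the adjusted threshold in edgeR, where 0.00642% of all genes were called. At an unadjusted p under 0.05 there were 34 of the 41, beside 12.9% of all genes, and the smallest edgeR adjusted p among the 41 was 0.291. The 41 values come from the same libraries and vary together, so they are not 41 separate observations. Leaving out any 1 of the 14 libraries gave medians of 0.60 (without d7_KO_421) to 0.89 (without d7_WT_370), with 0 called each time. Without d7_KO_420 the median was 0.80.

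The gene with the smallest unadjusted p on day 7 was Ifi44, an interferon-induced gene with antiviral activity. It was at 0.999, 2.69, 0.980 and 1.32 CPM in WT day 0 and at 1.58, 4.32, 1.66, 1.37 and 1.39 CPM in KO day 0. On day 7 its lowest, median and highest levels were 0.965, 1.81 and 3.07 CPM in WT and 2.46, 4.42 and 8.39 CPM in KO, after 1.06, 1.99 and 2.83 CPM and 1.08, 3.14 and 5.17 CPM on day 3. The genotypes overlapped on day 7 between 2.46 and 3.07 CPM. The difference was 1.28 ± 0.31 (edgeR unadjusted p = 0.000931, adjusted p = 0.291). DESeq2 called Ifi44, with an adjusted p of 0.018, as its single call among the 41.

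Ddx58 was next on day 7, at 14.4, 19.2 and 25.6 CPM in WT and 21.8, 29.1 and 31.5 CPM in KO as lowest, median and highest. The ranges overlapped, and the difference was 0.50 ± 0.14 (edgeR unadjusted p = 0.00315, adjusted p = 0.291). By role, the medians of the day 7 difference were 1.36 for the IRG GTPases, 1.15 for the GBP GTPases, 1.07 for the OAS family, 0.86 for the IFIT family and 0.37 for the signalling factors. Iigp1 had 1.52 ± 0.53, Gbp2 1.58 ± 0.58, Ifit2 1.51 ± 0.48 and Igtp 1.36 ± 0.43 as day 7 differences. Summed monocyte and macrophage markers were 119 ± 81.2 CPM in WT and 232 ± 146 CPM in KO on day 7 (SD, n = 7 each), with no marker of that list called, and their part in these differences was not tested.

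On day 3, 40 of the 41 differences between KO and WT were positive, with a median of 0.27 beside -0.00 over all 15461 genes. None of the 41 passed, where 0.00647% of all genes did, and 3 had an unadjusted p under 0.05, beside 7.88% of all genes, and DESeq2 called none. Mx1 had 0.62 ± 0.20 (edgeR unadjusted p = 0.00586, adjusted p = 0.623), with WT at 3.3 to 5.64 CPM and KO at 4.04 to 9.97 CPM. Stat2 had 0.24 ± 0.11 (edgeR unadjusted p = 0.0361, adjusted p = 0.623). With the library labelled d3_KO_345 left out, the day 3 median was 0.17, 39 differences were positive and none was called. Without the library labelled d3_WT_346 it was 0.19, again with none called.

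On day 0 the differences had no common direction, with 18 positive and 21 negative of the 39 genes tested and a median of -0.19. Gbp5 and Tgtp1 were too low to test there. None of the 39 passed, where 0.0335% of 14944 genes did, and 7 had an unadjusted p under 0.05, beside 10.5% of all genes, and DESeq2 called none. The 2 genes with the smallest p were Gbp2 and Iigp1, and both turned on d0_WT_41, the highest WT day 0 library in 40 of the 41 genes.

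Gbp2 was at 7.05, 83.4, 9.94 and 13.7 CPM in WT day 0 and at 7.16, 2.88, 5.32, 4.29 and 14.9 CPM in KO day 0, and the value of 83.4 CPM is d0_WT_41. The difference was -2.02 ± 0.70 (edgeR unadjusted p = 0.0137, adjusted p = 0.371), and -0.54 without that library. Iigp1 was at 0.764, 45.3, 2.38 and 4.34 CPM in WT day 0 and at 1.46, 0.111, 1.89, 0.183 and 4.09 CPM in KO day 0, again with d0_WT_41 on top. Its difference was -3.03 ± 1.06 (edgeR unadjusted p = 0.0147, adjusted p = 0.379), and -0.67 without it. Counts of Iigp1 in d0_KO_32 and d0_KO_54 were 1 and 2, below the floor. The median over the genes tested was then 0.11.

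**Figure D5:**
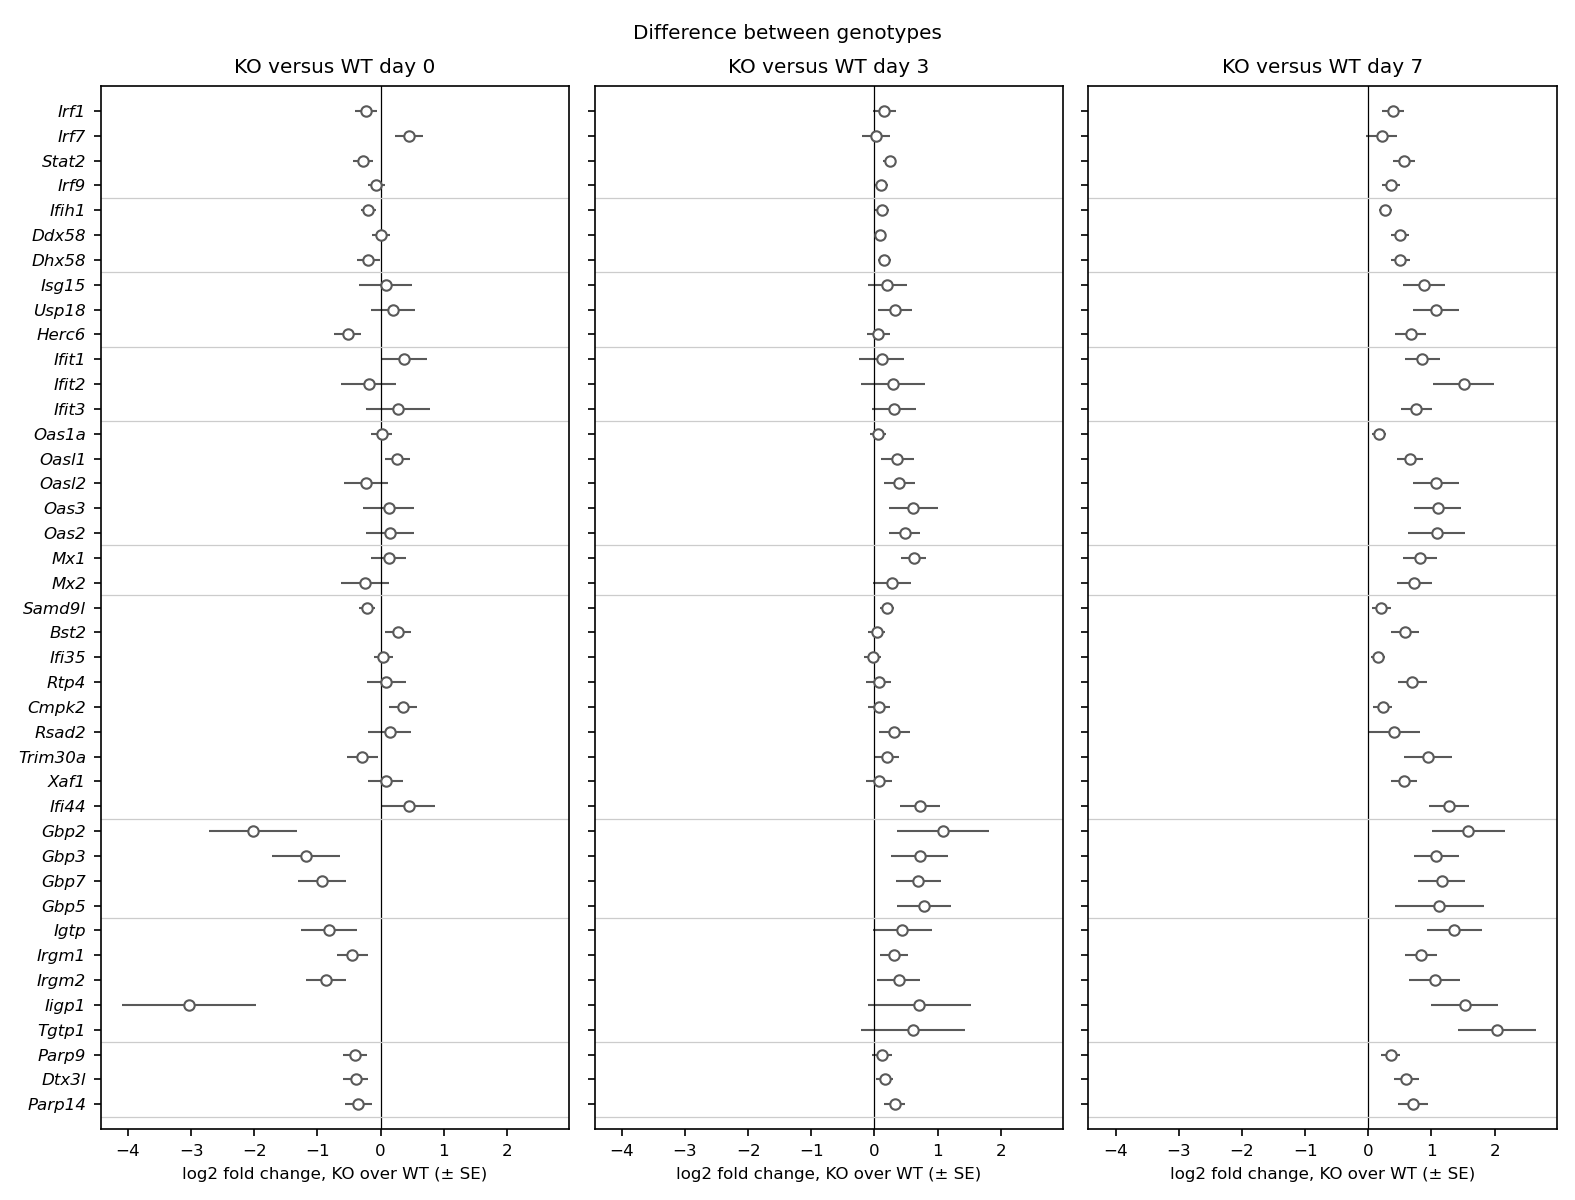
Log2 fold change of KO over WT with its SE for each gene on days 0, 3 and 7, with open points because none passed the adjusted threshold in edgeR and grey lines between roles. All 41 points lie above 0 on day 7, whereas Gbp2 (-2.02) and Iigp1 (-3.03) lie lowest on day 0.

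Each DSS day was also set against day 0, where the day cannot be told apart from the library series. In KO day 7, 26 genes were higher and 2 lower than on day 0, beside 27.3% of all genes higher and 27.3% lower (54.6% in all). The largest values were 5.62 for Iigp1, 5.05 for Gbp5, 4.78 for Tgtp1 and 4.04 for Gbp2. Iigp1, Gbp5 and Tgtp1 each had 3 counts or fewer in 2 of the 5 KO day 0 libraries, so the floor limits these folds. The lower ones were Irf7 (-0.83) and Rsad2 (-1.29). KO day 3 had 10 higher and 4 lower (22.6% and 23.7% of all genes, 46.3% in all), with Iigp1 at 3.22, Irgm1 at 1.05 and Irgm2 at 1.08. Without the library labelled d3_KO_345, 13 were called, 12 of them among the 14, beside 45.8% of all genes. The KO day 3 count was 9 without d0_KO_24 or d0_KO_53, and no share of all genes is given for those fits. With the pan-leukocyte markers as a covariate, edgeR called 0 of the 41 in either KO comparison with day 0, beside 411 genes of the whole table for day 7 and 2791 for day 3.

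In WT the balance against day 0 was the other way on day 3, with 1 gene higher (Bst2, 0.54) and 8 lower, beside 20.4% of all genes higher and 25.6% lower (46% in all). The lower genes were Rsad2 (-1.50), Oas3 (-1.34), Gbp7 (-1.12), Mx1 (-1.04), Samd9l (-0.83), Parp14 (-0.80), Ifih1 (-0.63) and Dtx3l (-0.60). Without the library labelled d3_WT_346, 8 were called, the same genes without Gbp7. WT day 7 had 3 higher (Gbp5, Ifit2 and Irgm1) and 4 lower (Rsad2, Mx1, Ifih1 and Samd9l), beside 27.8% of all genes higher and 29.2% lower (56.9% in all). The WT day 7 count was 15 without d0_WT_41 and 4 without d0_WT_43 or d0_WT_46. With the pan-leukocyte markers as a covariate it became 15, all lower. The share of all genes called is not given for that fit or for the WT fits with a library left out. Those counts therefore do not show whether the interferon-stimulated genes moved more than genes at large.

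The genes upstream were described from lists that hold none of the 41. Of 21 gene rows for interferon ligands, 13 had no count in any library. The highest count in any library was 71 for Ifng, 45 for Ifnk, 4 for Ifnl3 and 2 for Ifnb1. Ifnk had 8 to 45 counts in WT day 0 and 2 to 11 in KO day 0, but 0 to 4 in the DSS libraries. In WT it was called lower than on day 0, by -5.49 on day 3 and -6.38 on day 7. The floor limits these folds, and day 0 cannot be told apart from the library series. Ifng, which encodes interferon gamma, had lowest, median and highest levels of 0.0555, 0.143 and 0.247 CPM in WT day 3 and 0.0470, 0.120 and 0.237 CPM in KO day 3. On day 7 these were 0.0537, 0.205 and 0.592 CPM in WT and 0.244, 0.706 and 1.35 CPM in KO. The KO days did not overlap for Ifng, with 2 to 8 counts per library on day 3, around the floor, and 10 to 71 on day 7. It entered the KO test through its day 7 counts alone. The floor therefore limits the KO estimate of 2.55 ± 0.45 (edgeR adjusted p = 0.000742), which is no separate support for a rise. In WT it was too low to test, so these day tests do not compare the genotypes.

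Receptor genes were measured in every library. The counts below stand beside 10.6% of all genes that rose and 8.7% that fell from day 3 to day 7 in WT, and 10.5% and 8.83% in KO. Over these days, Ifnar2 and Ifngr1 rose in WT (2 of 6), and Ifnar1, Ifnar2 and Il10rb rose in KO (3 of 6). Ifnar2, a subunit of the type I receptor, had the largest of these changes, 0.68 in WT and 1.04 in KO. Among the kinases and transcription factors of the pathway reported here, Irf8 and Jak2 rose in WT, and in KO Irf8 rose and Irf2 fell by 0.28 on the log2 scale.

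Among 7 feedback inhibitors, Socs3 rose and Cish fell in both genotypes, and Socs1, which inhibits JAK kinases after interferon, rose in KO by 1.46. Of the 4 interferon-target chemokines, Cxcl9 rose in both (2.47 in WT and 2.80 in KO) and Ccl5 and Cxcl10 in KO. Further interferon targets outside the 41 had 11 higher and 2 lower of 32 tested in WT and 19 higher and 1 lower of 32 in KO. They include Gbp4 (2.13 in WT and 2.87 in KO), Ido1 (2.23 and 3.41) and the inducible nitric oxide synthase gene Nos2 (4.66 and 4.62). Of the sensors and adaptors upstream, 6 rose and 1 fell of 13 in WT and 8 rose of 14 in KO. Among them was the endosomal RNA sensor Tlr7 (3.64 and 3.09). Its day 3 libraries had 0 to 10 counts in WT and 3 to 35 in KO, so the floor limits these folds. Between KO and WT, edgeR called none of the genes of these lists, and those at an unadjusted p under 0.05 were 9 of 61 tested on day 0, 9 of 66 on day 3 and 26 of 71 on day 7, beside 10.5%, 7.88% and 12.9% of all genes.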

How the data were processed

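RNA sequencing of 38 libraries was analysed, each from 1 mouse and in 2 lanes whose counts were summed (lane correlation of log counts at least 0.989). The deposited values are raw counts per gene, made by the authors with featureCounts 1.6.2 on paired reads with strand ignored, per the file headers. The submitters' processing notes name featureCounts 1.5.2, Trim Galore, STAR and GRCm38. The annotation release is not given in the sources used here. The kit marks strand, per the labels' protocols, but the counts do not use it. No option for reads at several places or in several genes was set, per the file headers.

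The main test was the edgeR 4.0.16 quasi-likelihood test under R 4.3.3, with TMM scaling and filterByExpr by group, on the compared groups alone and over all genes, with Benjamini-Hochberg adjusted p under 0.05. SE is the absolute log2 fold change over the root of F. CPM are TMM-scaled over all 38 libraries, and log2 CPM use a prior count of 2. On simulated counts, the test of WT day 7 against day 3 recovered 78% of genes changed by 1 on the log2 scale and 99% of those changed by 2 (15402 genes).

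The 41 genes and all lists were chosen with earlier results of these data known. A gene of the pathway lists is not reported here. Genes given with values by library are the most abundant per kb of each role, the 6 with the smallest adjusted p for day 7 against day 3 in each genotype, and the 2 with the smallest p in each comparison of KO with WT, 20 in all. Promoters considered were, by adjusted p in WT, up to 6 with an ISRE-like match and up to 2 without one, so genes with a match were preferred, and 5 are printed: those of Gbp2 and Irgm1 lost their matches to GENCODE exons and that of Samd9l has none. Alternatives were DESeq2 1.42.0, its size factors in edgeR, 2 other filters, robust dispersions, a fit of all libraries, lane 1 alone, a leukocyte covariate and each library left out. A monocyte and macrophage covariate was added after seeing the data.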

Additional observations from a re-analysis of the deposited data

Results flagged for a closer look

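Among 126 combinations of a group with a gene described by library or with the mean of the 41 genes, 15 had 1 library far from the others of its group. Chance gives about 1 in 20 if levels are normally distributed. Gene levels were taken as CPM without a log, so that share is only a rough guide. The genes of a library are not independent, so the 15 combinations are 5 libraries rather than 15 separate events.

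In WT day 0, d0_WT_41 stood far above the next library in Gbp2 (83.4 against 13.7 CPM), Gbp3 (11.4 against 2.73 CPM), Igtp (30.3 against 8.87 CPM) and Iigp1 (45.3 against 4.34 CPM). In KO day 0, d0_KO_32 stood above in Ifi44 (4.32 against 1.66 CPM). In WT day 3, d3_WT_381 stood above in Ifit1 (23.5 against 12.5 CPM), Igtp (52.4 against 22.5 CPM), Isg15 (15.4 against 8.25 CPM) and Parp9 (79.3 against 56.2 CPM), and d3_WT_353 stood below in Ifih1 (54.6 against 67.8 CPM). In KO day 7, d7_KO_421 stood above in Gbp2 (429 against 94.5 CPM), Gbp3 (32.7 against 15.8 CPM), Ifit2 (125 against 61.1 CPM), Isg15 (36.1 against 19.1 CPM) and Usp18 (17.3 against 8.01 CPM).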

How the results depend on the processing

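DESeq2 called 1 of the 41 genes between KO and WT on day 7, where edgeR called 0. With the pan-leukocyte markers as a covariate the counts became 0 for WT day 7 against day 3, 0 for KO day 7 against day 3, 15 for WT day 7 against day 0, 0 for KO day 3 against day 0 and 0 for KO day 7 against day 0. With the monocyte and macrophage markers in their place, chosen after seeing the data, these were 0, 0, 17, 6 and 10. Shares of all genes called are not set beside these counts here, so they describe the processing and not the 41 genes. Under the monocyte and macrophage covariate 3 WT changes from day 3 to day 7 turned negative, at -1.54 for Gbp5, -0.14 for Ifit2 and -0.57 for Usp18. The cause was not tested. Under the other alternatives no direction of a named change turned and the counts stayed within 1.5 times.

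Leaving out 1 library gave 1 to 10 genes for WT day 7 against day 3, 12 to 26 for KO day 7 against day 3, 6 to 12 for WT day 3, 4 to 15 for WT day 7, 9 to 14 for KO day 3 and 25 to 31 for KO day 7 (each against day 0), and 0 each time between genotypes and for the interaction. Shares of all genes called in these fits are not set beside these counts. No paired analysis was possible because the groups share no animal number. Depth limits Gbp5, Tgtp1, Iigp1, Ifng, Ifnk and Tlr7, whose lowest libraries lie at or under the floor of 3 counts.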
